A study of Macaca radiata with 6 samples.

Results

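The insulin-like growth factor (IGF) family was read here in the corpus luteum (CL) of bonnet monkeys through 10 genes: the ligands IGF1 and IGF2, the receptors IGF1R and IGF2R, and the binding proteins IGFBP2 to IGFBP7. The members were taken as every probe set whose only gene symbol in the platform annotation is one of these names. The rule gave 21 of 52707 tested probe sets and 10 of 14132 genes. All 10 genes had at least 1 probe set. IGF1 had 4, IGF1R had 3, IGF2R had 2, IGFBP7 had 6 and each of the others had 1. Where a gene had several probe sets they are numbered here from the brightest, and a gene is read at its brightest one unless stated.

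CL were taken 24 h after a subcutaneous injection on day 7 of the luteal phase. The 3 CET samples came from adult female bonnet monkeys given 150 µg/kg BW of Cetrorelix, which blocks the pituitary GnRH receptor and so lowers the LH on which the CL depends. The 3 VEH samples came from females given the vehicle, 5.25% glucose. The sources used here give no ages. The design text says that the same monkeys gave CL for both treatments, but the labels do not say which samples belong together, so the arrays were compared as separate samples. Whole CL pieces were used, so that fewer cells of a type and less RNA per cell cannot be told apart. Bonnet monkey RNA was hybridised to probes of a rhesus macaque array.

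IGF1 and IGF2 are secreted peptides that resemble insulin. IGF1R is the tyrosine kinase receptor through which both signal to PI3 kinase and AKT, while IGF2R, which is also the mannose 6-phosphate receptor, takes up IGF2 and delivers it to lysosomes. The IGFBPs hold IGFs in blood and tissue fluid, can limit or prolong their access to IGF1R, and are cleaved by proteases of the PAPPA family. In the ovary IGF1 is known to act together with gonadotropins on steroid synthesis in granulosa and luteal cells.

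The binding proteins had lower means after CET, while the probe sets of IGF1R and of IGF1 differed in sign. IGF1R had a higher mean at 2 of its 3 probe sets and IGF1 at 2 of its 4. At the brightest probe set, 8 of the 10 genes had a lower mean log2 signal after CET, beside 54.7% of all genes. These were IGF2, IGF2R and all 6 binding protein genes, and the exceptions were IGF1R and IGF1. The median log2 fold change (difference of mean log2 signals, CET minus VEH) was -0.57 over the 10 genes and -0.08 over all genes. All 10 genes had a mean signal above the 40th percentile of all probe sets. Of the 10929 genes above it, 6303 had a lower mean after CET, with a median of -0.13. Of the 11 probe sets of binding proteins, all 11 were lower in mean after CET, beside 49.9% of all probe sets, but 6 of them read the same gene. The count of genes with a lower mean was 7 without CET replicate 3, and also 7 when the fit was adjusted for the 3' to 5' signal ratio of the control probe sets.

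None of these differences passed the test across all probe sets. In limma with Benjamini-Hochberg adjustment, 0 of the 21 probe sets had an adjusted p under 0.05, as had 0% of all probe sets, and their adjusted p ran from 0.83 to 0.99. At an unadjusted p under 0.05 there were 3 of 21, beside 5.39% of all probe sets, or 2840. They were IGF1R probe set 1 and IGF1 probe set 3, both higher after CET, and IGFBP7 probe set 4, lower after CET. Leaving out CET replicate 1 gave 8 such probe sets, and leaving out CET replicate 2, CET replicate 3 or VEH replicate 5 gave 1. The CET and VEH arrays did not overlap for 2 of 21 probe sets, beside 11.2% of all probe sets. A difference of over 1.5-fold between group means was found for 6 of the 10 genes, 1 higher and 5 lower, beside 42.6% of all genes.

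**Figure D1:**
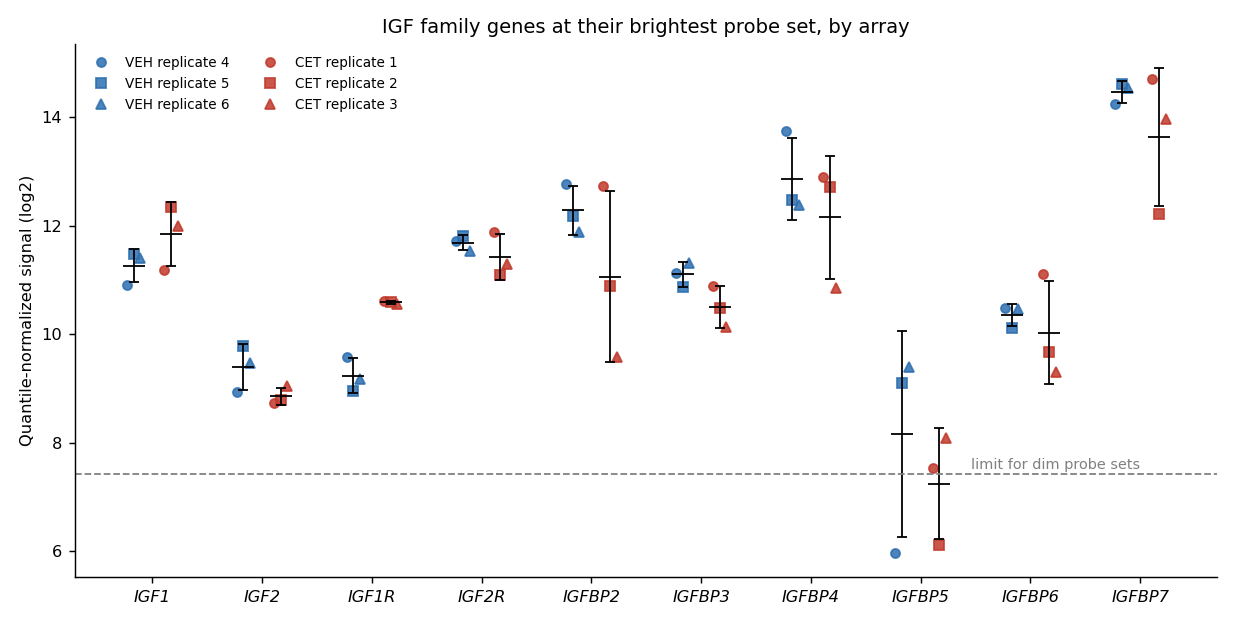
Quantile-normalized log2 signal of the 10 IGF family genes at their brightest probe set, by gene. Each point is 1 array, and the marks with bars give the mean and SD of 3 arrays. The IGF1R points of CET (10.55 to 10.61) lie above those of VEH (8.95 to 9.58), and the groups of the other 9 genes overlap. Signals of different genes come from different probes and are not compared.

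IGF1R, the signalling receptor, was the member that stood furthest from its spread between replicates. Its brightest probe set, MmugDNA.21123.1.S1_at, had deposited signals of 1477, 1568 and 1435 in CET replicates 1, 2 and 3, and of 736, 441 and 569 in VEH replicates 4, 5 and 6. On the normalized log2 scale the values were 10.61, 10.59 and 10.55 after CET and 9.58, 8.95 and 9.17 after vehicle. Every CET array lay above every VEH array, and the CET arrays lay closer together than the VEH arrays. The log2 fold change was 1.35 (standard error 0.43, 95% interval 0.41 to 2.29), or 2.55-fold higher after CET. In limma the unadjusted p was 0.0086 and the adjusted p was 0.83. With each array left out the log2 fold change ranged from 1.16 without VEH replicate 5 to 1.52 without VEH replicate 4.

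The other IGF1R probe sets differed from the brightest. Probe set 2 had log2 signals of 8.83, 9.25 and 8.48 in CET replicates 1, 2 and 3, against 8.17, 8.68 and 7.11 in VEH replicates 4, 5 and 6. CET replicate 3 lay below VEH replicate 5, so the groups overlapped, with a log2 fold change of 0.87 (95% interval -0.46 to 2.19), or 0.43 without VEH replicate 6. Probe set 3 gave -0.09 (95% interval -1.70 to 1.51), with CET replicate 1 the highest and CET replicate 3 the lowest of the 6 arrays. With single arrays left out it ranged from -0.80 without CET replicate 1 to 0.44 without CET replicate 3. Where on the transcript each probe set lies was not analysed here.

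IGF2R differed between groups by less than the spread of the CET arrays at its brightest probe set. The log2 signals were 11.89, 11.08 and 11.29 in CET replicates 1, 2 and 3 and 11.71, 11.82 and 11.53 in VEH replicates 4, 5 and 6. CET replicate 1 lay above all VEH arrays and the other CET arrays below all of them. The groups differed by -0.27 (95% interval -1.13 to 0.60) on the log2 scale, so that a 1.5-fold difference in either direction lay within the interval. The difference was -0.48 without CET replicate 1, -0.10 without CET replicate 2, -0.65 with array medians subtracted, -0.44 on signals as deposited and -0.079 after cyclic loess. At probe set 2 the log2 signal in CET replicate 2 was 6.18, against 10.22 and 10.21 on the other CET arrays, and the log2 fold change of -0.54 turned to 0.81 without that array.

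IGF1, the main ligand of IGF1R, had probe sets of opposite sign. At the brightest the log2 signals were 11.19, 12.34 and 11.99 in CET replicates 1, 2 and 3 and 10.91, 11.47 and 11.40 in VEH replicates 4, 5 and 6. CET replicates 2 and 3 lay above all VEH arrays, and CET replicate 1 lay among them. This gave a log2 fold change of 0.58 (standard error 0.43, 95% interval -0.36 to 1.53), which was 0.065 with array medians subtracted and 0.27 on signals as deposited.

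At probe set 3, MmugDNA.38092.1.S1_at, every CET array (9.96, 10.45 and 10.46) lay above every VEH array (8.69, 9.17 and 9.45). Here the log2 fold change of IGF1 was 1.18 (standard error 0.45, unadjusted p = 0.024, adjusted p = 0.83 from limma), or 2.27-fold higher. At probe sets 2 and 4 the means were lower after CET, with log2 fold changes of -0.68 and -0.38. On both of them CET replicate 2 was the lowest of the 6 arrays, at 9.20 and 8.03, while on the brightest it was the highest. Without CET replicate 2 the log2 fold changes of probe sets 2 and 4 were -0.22 and -0.16, and that of the brightest was 0.34. CET replicate 2 also had the highest ratio of 3' to 5' signal at the GAPDH control probe sets, 143, against 1.79 to 7.31 on the other arrays. Its ratios at the ACTB and EF1A controls, 37.2 and 42.2, were highest too, and VEH replicate 4 came next at 22.4 and 9.56. Adjusted for the mean 3' to 5' signal ratio of the controls, the log2 fold changes of IGF1 probe sets 1 to 4 were 0.54, -0.36, 1.25 and -0.19. A direction for IGF1 transcript was not settled by these probe sets.

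IGF2, the ligand that IGF2R clears, had 1 probe set with log2 signals of 8.73, 8.79 and 9.04 in CET replicates 1, 2 and 3. The VEH arrays gave 8.94, 9.78 and 9.47 in replicates 4, 5 and 6. CET replicate 3 lay above VEH replicate 4, and the other CET arrays lay below all VEH arrays. Their means differed by -0.54 (standard error 0.49, 95% interval -1.61 to 0.52) on the log2 scale, and the difference stayed below 0 with each array left out, from -0.78 to -0.34.

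**Figure D2:**
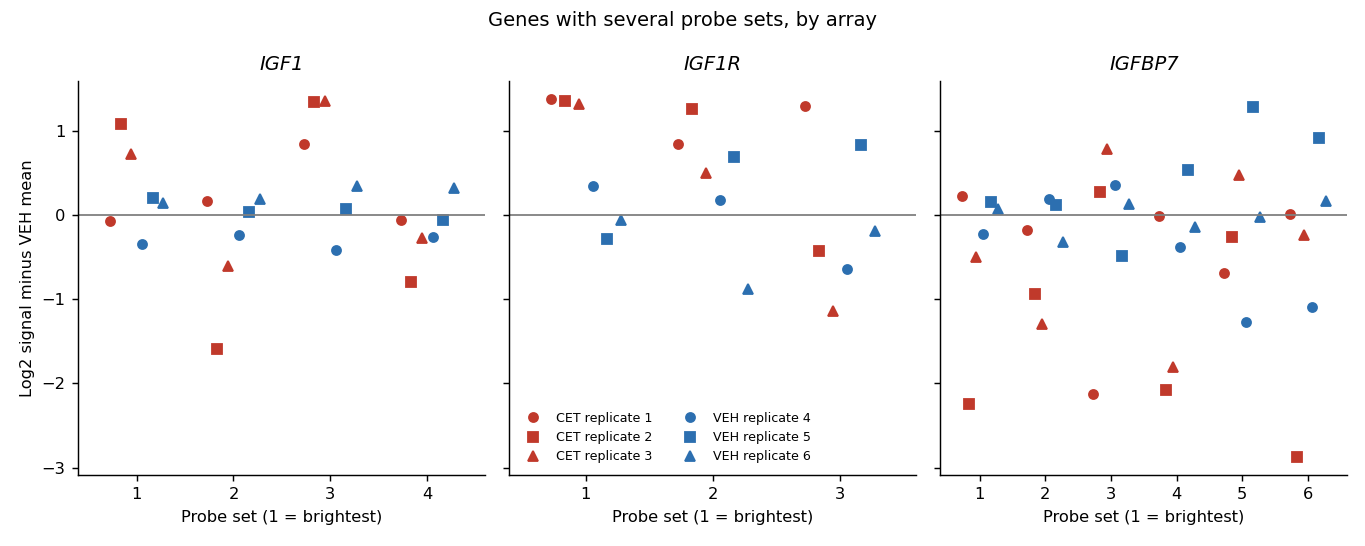
Log2 signal minus the VEH mean at each probe set of IGF1, IGF1R and IGFBP7, with probe sets ordered on the horizontal axis from the brightest. Each point is an array. At IGF1R probe set 1 and IGF1 probe set 3 the CET points lie above all VEH points, and at IGF1 probe set 2 CET replicate 2 lies lowest.

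Among the binding proteins IGFBP2 had the largest difference of the 6 genes at their brightest probe sets. It is a secreted protein that binds both IGFs. Its log2 signals were 12.72, 10.88 and 9.58 in CET replicates 1, 2 and 3, and 12.77, 12.18 and 11.89 in VEH replicates 4, 5 and 6. CET replicates 2 and 3 lay below all VEH arrays, while CET replicate 1 lay at the upper end of the VEH range. CET arrays had a mean of 11.06 ± 1.58 (SD, n = 3), and VEH arrays had a mean of 12.28 ± 0.45 (SD, n = 3). The log2 fold change of -1.22 (standard error 0.67, 95% interval -2.68 to 0.24) became -2.0 if CET replicate 1 was left out and -0.50 if CET replicate 3 was.

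IGFBP3, the main carrier of IGFs in blood, had a smaller difference and a smaller spread. The log2 signals were 10.90, 10.48 and 10.13 in CET replicates 1, 2 and 3 and 11.12, 10.87 and 11.31 in VEH replicates 4, 5 and 6. CET replicate 1 and VEH replicate 5 nearly met, and this was the only overlap. Here the log2 fold change was -0.60 (standard error 0.41, 95% interval -1.50 to 0.30), and it ranged from -0.79 to -0.43 with each array left out. It was -0.89 with array medians subtracted.

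IGFBP4, which binds IGFs until PAPPA cleaves it, had log2 signals of 12.89, 12.72 and 10.85 in CET replicates 1, 2 and 3. VEH replicates 4, 5 and 6 gave 13.74, 12.46 and 12.38. Only CET replicate 3 lay below the VEH arrays. Its log2 fold change was -0.71 (95% interval -1.99 to 0.58), with -0.056 without CET replicate 3 and -0.26 without VEH replicate 4. It was -1.20 with array medians subtracted and -1.24 when adjusted for the 3' to 5' signal ratio.

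IGFBP5, a binding protein that also attaches to the extracellular matrix, was the dimmest member. Its log2 signals were 7.54, 6.11 and 8.09 in CET replicates 1, 2 and 3 and 5.98, 9.11 and 9.40 in VEH replicates 4, 5 and 6. The lowest value of all was on VEH replicate 4, and the mean after CET, 7.25, lay under 7.43, the limit below which probe sets were treated as dim (the 40th percentile of all probe sets). A log2 fold change of -0.91 (standard error 0.95) was obtained. Leaving out VEH replicate 4 gave -2.03, leaving out VEH replicate 6 gave -0.29, and adjusting for the 3' to 5' signal ratio gave 0.017.

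IGFBP6, which prefers IGF2 over IGF1, had log2 signals of 11.11, 9.68 and 9.30 in CET replicates 1, 2 and 3 and 10.47, 10.12 and 10.46 in VEH replicates 4, 5 and 6. CET replicate 1 lay above all VEH arrays and the other CET arrays below all of them. For this gene the log2 fold change of -0.32 (95% interval -1.46 to 0.82) moved to -0.87 when CET replicate 1 was left out and to 0.044 when CET replicate 3 was.

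IGFBP7 binds IGFs only weakly and is abundant in vessel walls. Its brightest probe set had log2 signals of 14.69, 12.22 and 13.97 in CET replicates 1, 2 and 3, against 14.24, 14.61 and 14.53 in VEH replicates 4, 5 and 6. CET replicate 1 was the highest of the 6 arrays and CET replicate 2 the lowest. Its log2 fold change was -0.83 (standard error 0.58, 95% interval -2.09 to 0.42), with a range from -1.32 without CET replicate 1 to -0.13 without CET replicate 2. It was -1.30 with array medians subtracted, -0.43 after cyclic loess and -0.34 when adjusted for the 3' to 5' signal ratio.

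All 6 probe sets of IGFBP7 were lower in mean after CET, with log2 fold changes of -0.83, -0.81, -0.35, -1.30, -0.16 and -1.03 from the brightest to the dimmest. Probe set 4 had an unadjusted p of 0.044 and an adjusted p of 0.83 in limma. Its log2 signals were 10.95, 8.89 and 9.16 in CET replicates 1, 2 and 3 and 10.58, 11.49 and 10.82 in VEH replicates 4, 5 and 6. CET replicates 2 and 3 again lay below all VEH arrays and CET replicate 1 among them. Probe sets 4 and 5 carry the suffix s_at, which Affymetrix gives to probe sets that can match several transcripts. Probe sets 3 and 5 changed sign when CET replicate 1 was left out, to 0.52 and 0.13. Probe set 3 had its lowest value, 8.47, on CET replicate 1, the array that was highest at probe set 1, so the probe sets of IGFBP7 did not order the arrays alike.

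**Figure D3:**
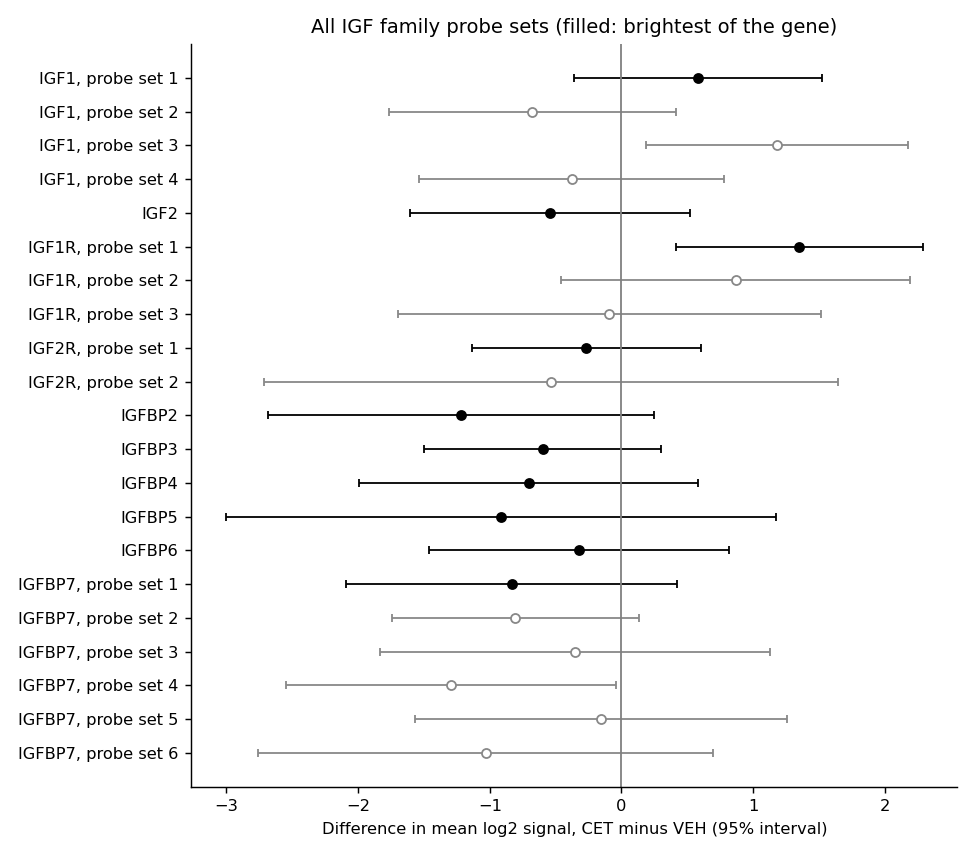
Difference of mean log2 signal, CET minus VEH, for all 21 IGF family probe sets, with 95% intervals from limma that are not adjusted for the number of probe sets. Filled points are the brightest probe set of each gene. The intervals of 18 probe sets include 0, and those of IGF1R probe set 1, IGF1 probe set 3 and IGFBP7 probe set 4 do not.

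The CET arrays were not alike in these genes. CET replicates 2 and 3 each lay below the whole VEH range for 6 of the 10 genes, and CET replicate 1 for 1, IGF2. For IGF2R, IGFBP2, IGFBP3, IGFBP6 and IGFBP7 both CET replicates 2 and 3 lay below that range. CET replicate 1 lay above it for 4 genes, IGF1R, IGF2R, IGFBP6 and IGFBP7. The shares of all genes outside the VEH range on each array were not computed. These counts are therefore not read as a trait of the family. The replicate SD was larger after CET than after vehicle for 7 of the 10 genes, and for 9442 of all 14132 genes. CET replicate 1 was also the CET array closest to the VEH arrays over all probe sets, with a mean Spearman rho of 0.756 to them and of 0.664 to the other CET arrays. CET replicate 2 had a mean log2 ratio of 3' to 5' signal at the controls of 5.92, against 0.61 to 3.54 on the other arrays. The part of this ratio in the low values on CET replicate 2 was not tested.

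**Figure D4:**
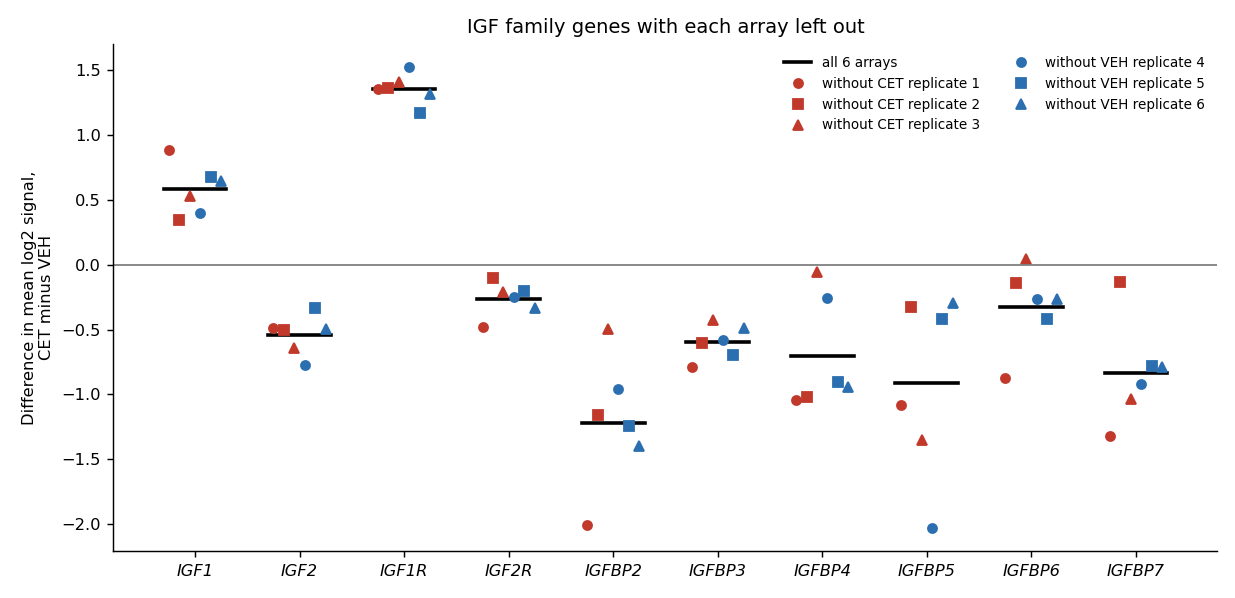
Difference of mean log2 signal, CET minus VEH, of the 10 genes with all 6 arrays (black bars) and with each array left out in turn (points). IGF1R stays between 1.16 and 1.52, IGFBP4 moves to -0.056 without CET replicate 3, and IGFBP7 moves to -0.13 without CET replicate 2.

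Genes that act on the binding proteins did not pass the test either. Of 12 listed proteases and partners, 9 had a probe set, with a median log2 fold change of 0.26. Of the 9, 7 were higher and 2 lower in mean after CET, beside 54.7% of all genes lower. There were 0 of 9 at an unadjusted p under 0.05 in limma, beside 5.03% of all genes. PAPPA2, a protease of IGFBP5 and IGFBP3, had a log2 fold change of 0.80 (95% interval -0.41 to 2.01), or 0.19 without CET replicate 2. STC1, a stanniocalcin that inhibits PAPPA proteases, had 0.57 (95% interval -0.37 to 1.51), with every CET array above every VEH array. It was the 1 gene of 9 whose groups did not overlap, beside 11.5% of all genes. ADAM9 and CTSD, which encode a membrane protease and a lysosomal protease, had -1.23 and -0.98. ADAM9 was -0.30 without CET replicate 2 while leaving out CET replicate 3 gave -0.28 for CTSD and leaving out CET replicate 1 gave -1.82. No probe set was named PAPPA, the protease of IGFBP4.

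Downstream of the receptor, 13 of 16 listed names of the insulin receptor family and its adaptors had a probe set. Of these, 8 had lower and 5 higher means, with a median of -0.16, beside 54.7% of all genes lower. PTPN11, a phosphatase that passes receptor signals to RAS, had log2 signals of 11.25, 10.28 and 11.30 after CET and 11.56, 12.10 and 12.06 after vehicle, with no overlap. Its log2 fold change was -0.97 (standard error 0.43, unadjusted p = 0.045, adjusted p = 0.83 from limma), and it was the 1 gene of 13 at an unadjusted p under 0.05, beside 5.03% of all genes. The groups did not overlap for 2 of the 13, PTPN11 and SOS1, beside 11.5% of all genes. SOS1, the exchange factor that activates RAS, had -0.73 (95% interval -1.66 to 0.21). The docking proteins IRS1 and IRS2 had 0.61 (95% interval -0.35 to 1.58) and -0.19 (95% interval -1.15 to 0.77). No probe set was named INSR, the insulin receptor.

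Of 29 listed names of PI3 kinase and AKT signalling, 21 had a probe set, with a median of -0.33. Means after CET were lower for 16 and higher for 5, beside 54.7% of all genes lower. At an unadjusted p under 0.05 in limma there were 0 of 21, beside 5.03% of all genes. RPS6KB1, a kinase of ribosomal protein S6, had -0.90 (95% interval -1.89 to 0.08), and RICTOR, a subunit of mTOR complex 2, had -0.73 (95% interval -1.67 to 0.21). For both genes the CET arrays all lay under the lowest VEH array. The groups did not overlap for 3 of the 21, these 2 and PDK1, beside 11.5% of all genes. AKT1 had log2 signals of 10.57, 9.22 and 7.27 in CET replicates 1, 2 and 3 and of 10.30, 10.21 and 10.29 in VEH replicates 4, 5 and 6. CET replicate 1 lay highest and CET replicate 3 far below the others, and the log2 fold change of -1.25 became -0.38 if CET replicate 3 was left out and -2.06 if CET replicate 1 was. FOXO1, a transcription factor restrained by AKT, had -0.54 (95% interval -1.65 to 0.57). PDK1, at 1.13 (95% interval -0.16 to 2.42), encodes pyruvate dehydrogenase kinase and not the AKT kinase once known by this name, so it does not belong to the pathway its list is named for. The counts, median and sum of this list still include PDK1, among the 5 with higher means.

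Proteins with an IGF binding domain outside the 10 genes had mixed signs, with 5 higher and 3 lower of 8 and a median of 0.33. Of all genes 54.7% were lower. IGFBP1, a binding protein that insulin represses in liver, is not in the rule but had a probe set, with log2 signals of 12.42, 10.13 and 13.63 after CET and 13.70, 12.91 and 13.05 after vehicle. Its log2 fold change of -1.16 (95% interval -2.74 to 0.42) became -0.20 if CET replicate 2 was left out and -2.01 if CET replicate 3 was. ESM1, a proteoglycan of endothelial cells, had -0.65 and CCN3, a matrix-associated protein, had 0.96, neither past the test. Leaving out VEH replicate 6 gave 0.26 for CCN3, and leaving out CET replicate 1 or CET replicate 3 gave 0.48 or 1.57. For ESM1 the same CET arrays left out gave -1.14 and -0.32. Of the IGF2 mRNA binding proteins 3 of 3 had a higher mean, but IGF2BP2, at 1.23, and IGF2BP3, at 0.60, lay below the dim limit. Leaving out CET replicate 3 gave 0.64 for IGF2BP2, and leaving out VEH replicate 5 gave -0.54 for IGF2BP3. The mannose 6-phosphate sorting genes had 1 higher and 2 lower of 3, with a median of -0.15.

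All 7 steroidogenic markers with a probe set lay above the dim limit, and 6 had a lower mean after CET, beside 54.7% of all genes. Their median was -0.99. NR5A2, a nuclear receptor of steroidogenic cells, had a log2 fold change of -1.34 and STAR, which carries cholesterol into mitochondria, of -1.49. These were the 2 of 7 at an unadjusted p under 0.05 in limma, beside 5.03% of all genes. For NR5A2 the groups overlapped, and its log2 fold change was -0.72 when adjusted for the 3' to 5' signal ratio. STAR had log2 signals of 14.85, 12.75 and 13.65 after CET and 15.23, 15.58 and 14.91 after vehicle, and its log2 fold change was -0.96 without CET replicate 2. The summed linear signal of the luteal list was 83173, 41591 and 37762 in CET replicates 1, 2 and 3, and 72169 to 114950 in VEH. That of the 10 IGF family genes was 53189, 25044 and 29263 in the same CET replicates and 44346 to 50152 in VEH. A linear sum is weighted to the brightest genes, which among the members were IGFBP7, IGFBP4 and IGFBP2, and does not stand for each member. In the luteal and the IGF family sums CET replicates 2 and 3 were below every VEH array and CET replicate 1 was not. The epithelial sum lay the same way, at 2425, 1973 and 977 in CET replicates 1, 2 and 3 and 2363 to 3089 in VEH. So did the sum of the PI3 kinase and AKT list, at 28897, 15196 and 18144 against 25597 to 26935, so this order was not particular to luteal markers. Single luteal markers did not all order the arrays this way. NR5A1, a nuclear receptor that drives steroidogenic genes, was lowest on CET replicate 1 at 5.94 and highest on CET replicate 3. After normalization STAR on CET replicate 1 lay narrowly below every VEH array, at 14.85 against 14.91 on VEH replicate 6. The deposited STAR signal on CET replicate 1, 43965, lay above 34265 and 34390 on VEH replicates 5 and 6. The part of luteal cell content in the IGF family values was not tested.

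Of all genes 54.7% had a lower mean after CET, and the lists of cell type markers below are read beside that share. Of the endothelial markers 9 of 11 had a lower mean (median -0.42), with a summed signal of 15976 to 27284 after CET and 17312 to 23623 after vehicle. FLT1 and KDR of this list lay below the dim limit, and CDH5, a junction protein of endothelium, had a log2 fold change of -1.52 (unadjusted p = 0.018, adjusted p = 0.83 from limma), the lowest of the list. TEK, the angiopoietin receptor, was at 0.84 and PECAM1, an adhesion molecule of endothelium, at -0.04. The pericyte and smooth muscle list had 4 of 6 lower (median -0.32), and its summed signal was 6411 to 10137 after CET and 9301 to 10925 after vehicle. TAGLN, an actin binding protein of smooth muscle, was at -0.82, while CNN1 and MYH11, contractile proteins of smooth muscle, were at 0.89 and 0.34, CNN1 being dim. Fibroblast markers had 4 of 7 lower (median -0.24), with sums of 19950 to 36447 and 26439 to 37629. COL1A1, a collagen chain, was at -2.63, the lowest of the list, while 3 of the 7 had higher means, up to 0.20. Its log2 signal on CET replicate 1, 12.12, lay within the VEH range of 10.98 to 12.56. Leaving out CET replicate 3 or CET replicate 1 gave -1.43 or -4.19 for COL1A1. Macrophage markers had 4 of 7 lower (median -0.14), with sums of 6577 to 10884 and 4742 to 10281.

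Lymphocyte markers had 2 of 4 lower (median -0.0068), but their sum of 4525 to 5148 after CET lay below the 6998 to 8657 after vehicle, with GZMB, a granule protease that made up most of the sum on every array, at -0.79. The other 3 lymphocyte markers were at 0.33 for MS4A1, 0.12 for CD8A and -0.14 for NKG7, with overlapping groups. Epithelial markers had 7 of 8 lower (median -0.64), beside 54.7% of all genes, and 4 of the 8 were dim. Their sums were 977 to 2425 after CET and 2363 to 3089 after vehicle, with KRT18, a keratin, at -1.82. The erythroid list had 1 of 2 lower, with ALAS2, a haem synthesis enzyme, at 1.05, and sums of 1763 to 4521 after CET and 1895 to 3269 after vehicle. The part of these cell types in the values of IGFBP3, IGFBP5 and IGFBP7, which stromal and vascular cells also express, was not tested.

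**Figure D5:**
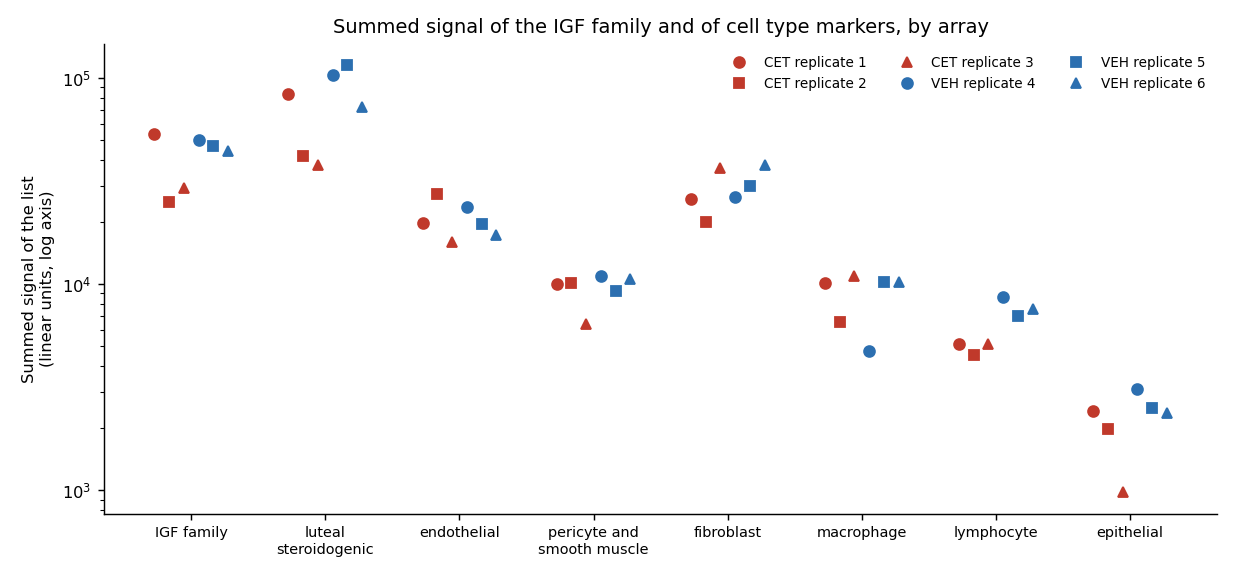
Summed quantile-normalized signal on a linear scale, drawn on a log axis, of the IGF family and of lists of cell type markers, with each point an array. For the IGF family, the luteal steroidogenic list and the epithelial list CET replicates 2 and 3 lie below all VEH arrays and CET replicate 1 does not.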

How the data were processed

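Per the labels the authors deposited MAS5 output, a linear intensity per probe set, whose mean on every array is 500 once the highest and lowest 2% are left out. The version of MAS5, its settings and detection calls were not used here. Signals under 1 were set to 1, log2 values of all 52865 probe sets were quantile-normalized, and 158 controls were then dropped. Platform annotation gave a single symbol for 24956 of 52707 probe sets, several for 361 and none for 27390. The groups were fitted in limma 3.58.1 (R 4.3.3) on all 52707 probe sets at once, with the trend of variance on signal, without covariates, and p-values were adjusted by Benjamini-Hochberg with a threshold of 0.05. The script was tested on simulated data. With 3 arrays a group, their number limits the precision, and replicates had a median SD of 0.846 in log2 signal. Both treatments are said to come from the same monkeys, with no pairs named, so p-values measure only the spread between these samples.

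The members and gene lists were chosen with earlier results of these data known. The rule for other genes (up to 4 of each list by smallest p, and 7 named whatever their values) gives 54 genes with a probe set, of which 31 are given with values here. These 31, and 3 outside the rule (PECAM1, MYH11 and NR5A1), were chosen after their values were seen. Alternatives were other normalizations, floors, filters, variance models, the methods' t-test, adjustment for the 3' to 5' signal ratio of controls, and leaving out each replicate. No sequences or genome positions were used here.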

Additional observations from a re-analysis of the deposited data

How the results depend on the processing

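At an adjusted p under 0.05 there were 0 calls in every alternative run, and the lowest adjusted p of a member probe set was 0.25. Over 21 member probe sets and 16 alternatives, 323 of 336 values kept their sign and 13 turned, at 6 probe sets. Leaving out dim probe sets, limma without the trend and the methods' t-test keep each member's log2 fold change as it was. No sign could turn in these, so the kept signs overstate how stable the values are. The count of all probe sets at an unadjusted p under 0.05, 2840 of 52707, was 5086 with array weights. With dim probe sets left out it was 1756, but only 31624 probe sets were then tested. With each replicate left out the count over all 52707 ran from 1694 without VEH replicate 5 to 7020 without CET replicate 1. It was 2729 by the methods' t-test. The count of member probe sets at that limit, 3, was 1 in limma without the trend and ran from 1 to 8 with each replicate left out.

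Adjusted for the 3' to 5' signal ratio, signs turned at IGF1R probe set 3 (0.032), IGF2R probe set 2 (0.71), IGFBP5 (0.017) and IGFBP7 probe set 5 (0.28), and with array weights at IGFBP7 probe set 3 (0.031). Signs of cell type markers with small differences turned at CD8A (-0.36, adjusted for the ratio), MYH11 (-0.11), NKG7 (0.13) and NR5A1 (0.26) with array weights, NKG7 (0.12) and NR5A1 (0.071) on signals as deposited, and PECAM1 (0.051) after cyclic loess. With each replicate left out, log2 fold changes ran from -0.80 to 0.44 at IGF1R probe set 3, -1.22 to 0.81 at IGF2R probe set 2, -0.87 to 0.044 at IGFBP6, -0.94 to 0.52 at IGFBP7 probe set 3, -0.78 to 0.47 at IGFBP7 probe set 5 and -0.46 to 0.064 at IRS2. The ranges were -0.57 to 0.38 at PECAM1, -0.29 to 2.02 at CNN1, -0.39 to 0.995 at MYH11, -0.27 to 0.89 at MS4A1, -0.40 to 0.95 at CD8A, -0.47 to 0.30 at NKG7, -0.76 to 1.06 at NR5A1 and -0.54 to 1.35 at IGF2BP3. The cause was not tested. On the signals as deposited the median over all probe sets was 0.17, against 0.0025 after quantile normalization. At that scaling 8 of the 10 genes still had a lower mean after CET. No paired analysis was possible because the CET and VEH samples share no replicate number. IGFBP5, whose CET mean lay below the dim limit, is the member that signal over background limits most.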
